A study of Mus musculus with 2 samples.

Results

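Notch signalling in lung endothelium was followed through 8 genes: the ligands Dll4, Jag1 and Jag2, the receptors Notch1 and Notch4, and the target genes Hey1, Hey2 and Hes1. They are the rows with these symbols in both count matrices, 8 of 32285 gene IDs, and they were read in cells with 1000 to 5000 detected genes and under 20% mitochondrial counts, in each vessel type of the lung. To examine how lung endothelial cells (ECs) differ after melanoma cells arrive, lungs of mice injected with B16-F10 cells were compared with lungs of mice given phosphate-buffered saline (PBS). The injected line, B16-F10, was derived from mouse melanoma, and a green dye marked its cells.

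Both groups were wild-type C57BL/6 mice, male and 8 to 10 weeks old. The control group received PBS, and the B16-F10 6 h group received 400000 B16-F10 cells in 100 microlitres of PBS. Both injections went into the tail vein, and lungs were taken at 6 h. The labels give 2 mice per treatment and the published methods 3, and the cells were pooled. Cells with Pecam1 and without Ptprc on the surface were sorted, and dyed melanoma cells of the injected lungs were collected as well. Each group is 1 library, so there is no replicate error, no test and no p-value, and each difference is between 2 libraries. Intervals are 95% intervals and cover counting error only. Genes are called lower or higher where the interval of the ratio excludes 0 on the log2 scale.

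Before filtering there were 85794655 unique molecular identifiers (UMIs, each marking 1 captured RNA molecule) for control and 104978816 for B16-F10. Levels are UMIs of a gene per 1000000 UMIs of its class (CPM). After filtering, 7830 and 7767 cells remained, which shared 18 barcodes. General capillary (gCap-like) ECs numbered 4856 and 4430, aerocyte capillary (aCap-like) ECs 1446 and 968, artery-like ECs 185 and 134, vein-like ECs 287 and 281, and lymphatic (LEC-like) ECs 58 and 51. All 8 endothelial markers were detected in every class, as were the 8 markers of its own vessel type. The Notch genes were left out of the genes that formed these classes. One gCap-like cluster, led by Lalba, Tmem252 and Adamts9, came mostly from the B16-F10 library (71 control and 997 B16-F10 cells), and an unnamed EC cluster almost wholly (12 and 344). In the aCap-like class, a cluster of low-count cells held 605 control and 66 B16-F10 cells. RNA released into the suspension was estimated to supply between 1.19% and 2.17% of the UMIs of a class. Of the level of a Notch gene in a class it would supply at most 8.23%, apart from the cases given beside their values.

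Notch receptors are activated by ligands on a neighbouring cell. Ligand binding exposes the receptor to cleavage, and its released intracellular part enters the nucleus, joins the DNA-binding protein Rbpj and switches on genes of the Hes and Hey families, whose products repress other genes. In blood vessels Dll4 and Notch1 promote arterial identity and limit sprouting. Jag1 competes with Dll4 for receptors whose sugar chains have been extended by Fringe enzymes.

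Coordinates are those of GENCODE M21 on GRCm38, and all 8 genes are annotated as protein-coding. Among the ligands, Dll4 is at chr2:119325784-119335962 on the plus strand, Jag1 at chr2:137081456-137116644 on the minus strand and Jag2 at chr12:112907819-112929776 on the minus strand. The receptor Notch1 is at chr2:26457903-26516663 on the minus strand and Notch4 at chr17:34564268-34588503 on the plus strand. The targets are Hey1 at chr3:8663359-8667256 on the minus strand, Hey2 at chr10:30832359-30842801 on the minus strand and Hes1 at chr16:30064384-30067796 on the plus strand.

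Promoter sequences of RefSeq (250 bases before to 50 bases after the start of a gene, build GRCm38.p6) were matched by symbol for 6 of the 8 genes. They were searched on both strands for the Rbpj motif GTGGGAA and for CACGCG, a motif bound by Hes and Hey proteins. TTCCCAC, the reverse complement of the first, can run into CACGCG, and no match given here does so. Of all 32851 promoters of this length, 6.38% hold the Rbpj motif and 9.27% hold CACGCG. Those of Hey2, the target with the lowest ratio below, and of Dll4 and Jag1, the ligands called lower in gCap-like ECs, are shown 5′ to 3′ on the strand of the gene, with the motif matches in capitals.
Hey2 (chr10:30842734-30843033, minus strand): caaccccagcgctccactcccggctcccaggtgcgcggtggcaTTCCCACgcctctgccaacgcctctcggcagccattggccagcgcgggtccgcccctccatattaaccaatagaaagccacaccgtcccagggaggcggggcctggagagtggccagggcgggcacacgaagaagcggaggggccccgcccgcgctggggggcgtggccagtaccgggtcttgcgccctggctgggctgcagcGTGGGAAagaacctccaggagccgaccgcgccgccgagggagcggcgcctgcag
Dll4 (chr2:119325534-119325833, plus strand): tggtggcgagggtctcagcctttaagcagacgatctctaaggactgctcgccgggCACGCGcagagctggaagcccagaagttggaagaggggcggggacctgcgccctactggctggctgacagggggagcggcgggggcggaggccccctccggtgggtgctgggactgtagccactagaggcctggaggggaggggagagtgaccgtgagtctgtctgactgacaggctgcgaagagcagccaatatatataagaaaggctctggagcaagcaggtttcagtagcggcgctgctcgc
Jag1 (chr2:137116471-137116770, minus strand): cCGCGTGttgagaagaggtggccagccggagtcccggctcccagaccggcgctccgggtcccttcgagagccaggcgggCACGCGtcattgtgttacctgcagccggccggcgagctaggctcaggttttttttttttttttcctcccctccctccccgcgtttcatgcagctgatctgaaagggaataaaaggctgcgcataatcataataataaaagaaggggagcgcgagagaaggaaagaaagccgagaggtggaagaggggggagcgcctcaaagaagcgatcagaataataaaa
Hey2 holds 2 Rbpj matches, which begin 207 and 4 bases before the start. Dll4 holds 1 CACGCG match 195 bases before the start, and Jag1 holds 2, at 249 and 171 bases. Jag2 has 1 such match 18 bases after the start, and the windows of Notch1 and Notch4 hold neither motif. Positions are counted from the RefSeq start, which need not be the GENCODE one. The Notch1 window, chr2:26503773-26504072, lies inside the GENCODE gene and away from its start given above. A match is a run of letters and does not show that a factor binds there.

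In gCap-like ECs of lungs with melanoma cells, the ligand Jag1 and the targets Hey1 and Hey2 were lower, while the target Hes1 was higher. Hey2 stood at 0.217 times its control level, Jag1 at 0.549, Hey1 at 0.669, Dll4 at 0.868, Jag2 at 0.925, Notch4 at 0.930, Notch1 at 1.07 and Hes1 at 1.17. By the counting interval 5 of the 8 genes were lower (Dll4, Jag1, Notch4, Hey1, Hey2), 2 were higher (Notch1, Hes1) and Jag2 was within counting error. Of all 13232 genes with at least 50 UMIs in gCap-like ECs, 34.4% were lower and 28.6% higher by the same measure. Past a log2 ratio of 0.5 in size, 3 of the 8 genes were lower, where 12.2% of all genes were, and none was higher, where 9.51% were. The median log2 ratio was -0.16 over the 8 genes and -0.04 over all genes.

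**Figure D1:**
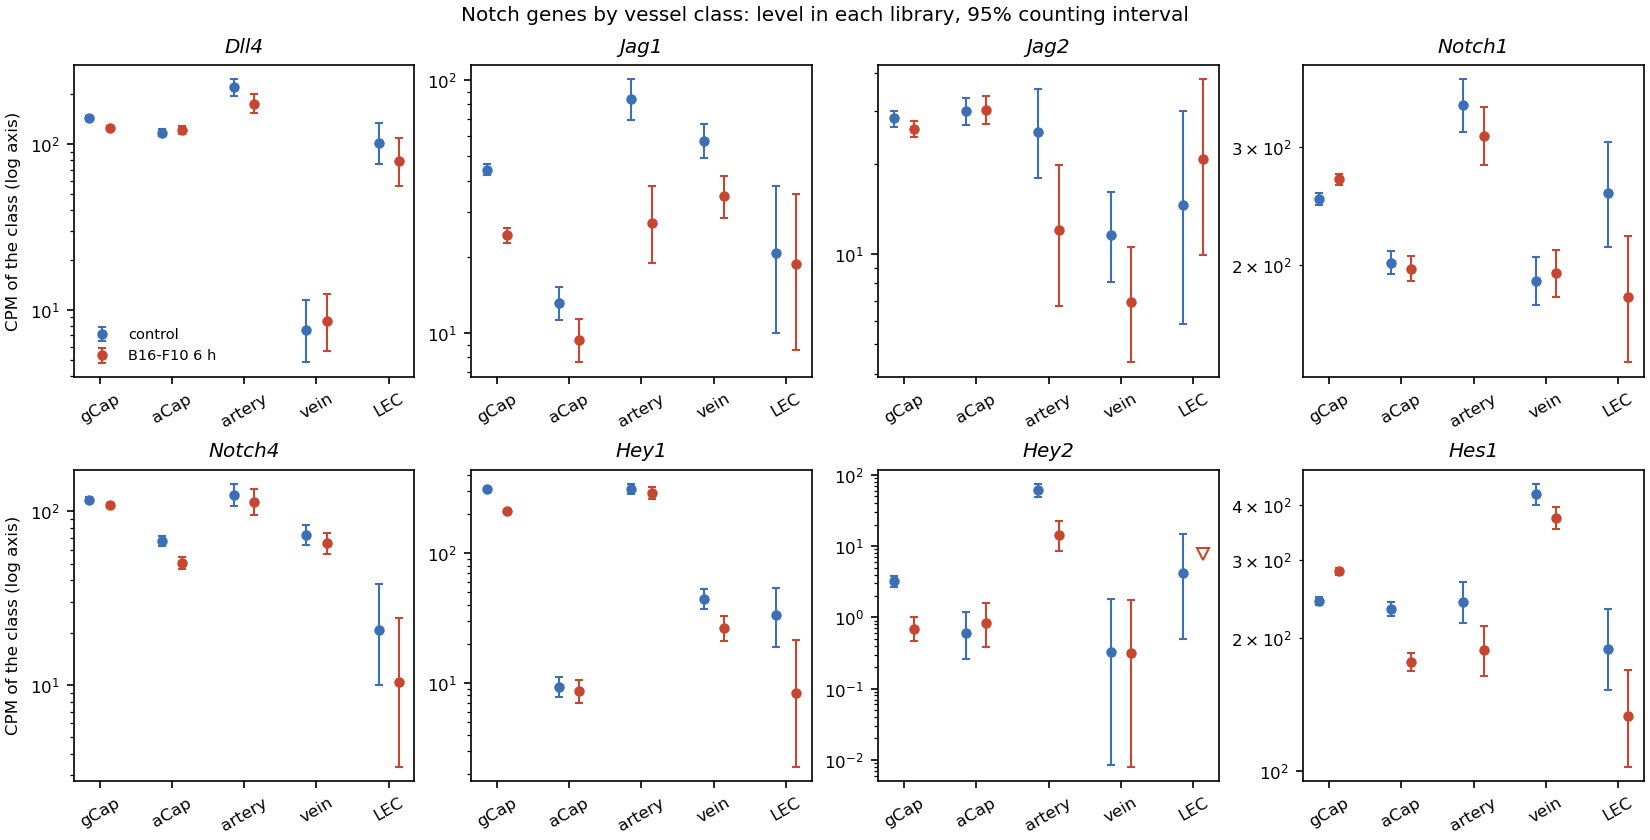
Level of each Notch gene in CPM on a log axis, by vessel class, in the control library (blue) and the B16-F10 library (red), with 95% counting intervals as bars. The open triangle marks the upper bound where no UMI was counted. Dll4 is lowest in vein-like ECs, and Hey2 is highest in artery-like ECs in both libraries.

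The other vessel classes held no Notch gene that was higher in the B16-F10 library by its counting interval. In aCap-like ECs 3 of the 7 genes with at least 50 UMIs were lower (Jag1, Notch4, Hes1), where 27.4% of all genes were lower and 27.9% higher. None of the 7 passed a log2 ratio of 0.5 in size, against 11.1% of all genes below and 9.37% above. In artery-like ECs 5 of 8 were lower (Dll4, Jag1, Jag2, Hey2, Hes1), where 13.2% of all genes were lower and 15.2% higher, and 3 of 8 passed -0.5, against 10.8% below and 12.5% above. In vein-like ECs 3 of 7 were lower (Jag1, Hey1, Hes1), where 14.6% of all genes were lower and 12.3% higher, and 3 of 7 (Jag1, Jag2, Hey1) passed -0.5, against 8.01% below and 7.18% above. LEC-like ECs gave enough UMIs for Dll4, Notch1 and Hes1 alone, of which Notch1 and Hes1 were lower, where 10.4% of all genes were lower and 10.1% higher, and the same 2 of 3 passed -0.5, against 11.1% below and 11.3% above. Markers of other cells moved in these classes too. In vein-like ECs the 5 red cell markers summed to 515 CPM for control and 3537 for B16-F10, with 5 of 5 higher and none at 0, and the 8 melanoma markers to 14.2 and 37.6, with 6 of 8 higher and 6 at 0 for control. Melanoma markers summed to 46.1 and 67.2 CPM in aCap-like and 20.8 and 72.7 in LEC-like ECs, and red cell markers to 1992 and 1093 in aCap-like and 657 and 1076 in LEC-like ECs. Their part in the Notch gene ratios was not tested. The median over the measured Notch genes was -0.11 in aCap-like, -0.34 in artery-like, -0.51 in LEC-like and -0.18 in vein-like ECs, beside 0.01, 0.02, -0.01 and -0.03 over all genes.

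**Figure D2:**
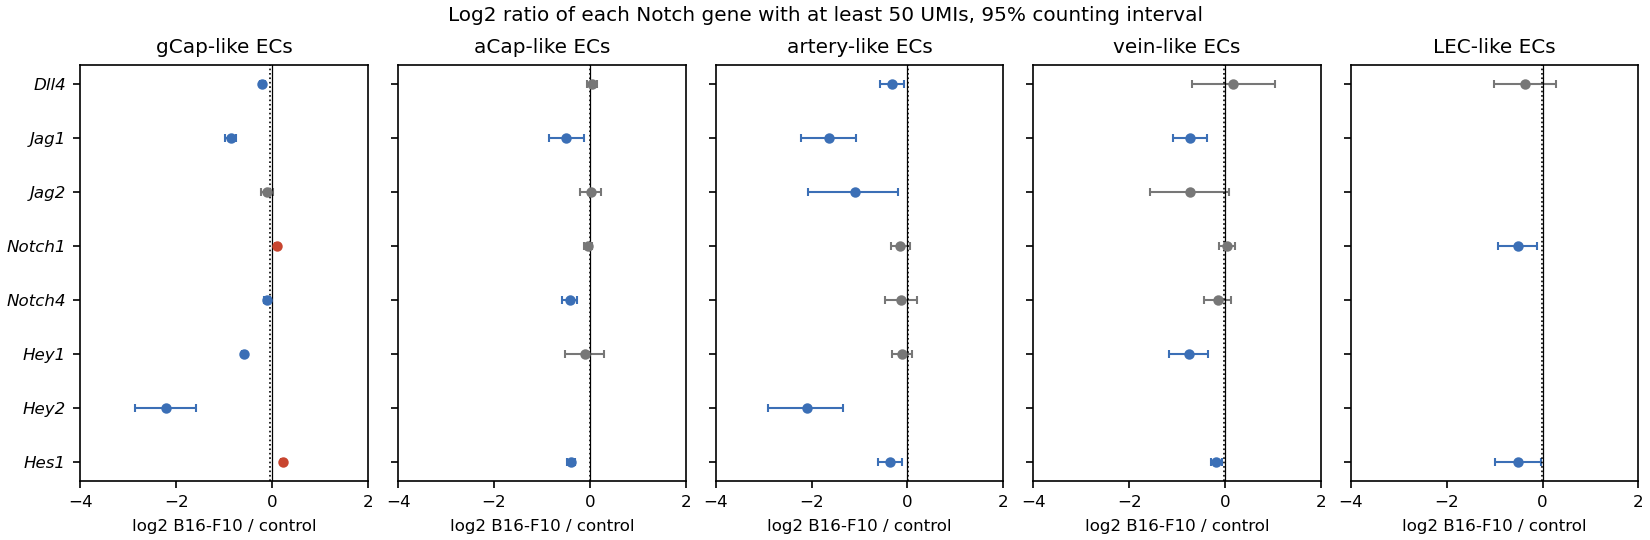
Log2 ratio of B16-F10 over control for each gene with at least 50 UMIs in a class, with 95% counting intervals as bars. Blue marks intervals below 0, red above 0 and grey those that include 0, and the dotted line is the median of all genes measured in that class. Jag1 lies below 0 in the 4 classes where it was measured, and red points appear in gCap-like ECs only.

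Dll4, the ligand that acts through Notch1 in sprouting vessels, was highest in artery-like and lowest in vein-like ECs. In the control library it stood at 220 CPM (196 to 246) in artery-like, 143 (139 to 147) in gCap-like, 117 (112 to 123) in aCap-like, 102 (75.4 to 135) in LEC-like and 7.60 (4.82 to 11.4) in vein-like ECs. The order was the same in the B16-F10 library, at 176, 124, 121, 79.0 and 8.53 CPM. Among neighbours in that order, aCap-like and LEC-like ECs overlapped in the control library, and gCap-like and aCap-like ECs in the B16-F10 library. Between libraries the log2 ratio was -0.20 (-0.26 to -0.15) in gCap-like ECs and -0.32 (-0.58 to -0.07) in artery-like ECs. In aCap-like ECs it was 0.05 (-0.06 to 0.16), and vein-like and LEC-like ECs were also within counting error. With every cell thinned to 2000 UMIs, the artery-like value was 0.14 (-0.42 to 0.70). Free RNA would supply 19.2% of the vein-like Dll4 for control and 22.3% for B16-F10.

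Jag1, the ligand that competes with Dll4, had the lowest ratios among the ligands in gCap-like and artery-like ECs. In gCap-like ECs 44.2 CPM (42.1 to 46.5) in the control library stood against 24.3 (22.8 to 25.9) in the B16-F10 library, a log2 ratio of -0.87 (-0.98 to -0.75). In artery-like ECs 118 and 34 UMIs gave 84.0 and 27.2 CPM, a log2 ratio of -1.63 (-2.22 to -1.07). In vein-like ECs 57.5 and 34.8 CPM gave -0.73 (-1.08 to -0.37). Its level was lowest in aCap-like ECs, at 13.1 and 9.38 CPM (-0.49, -0.85 to -0.12), a ratio that was -0.31 (-0.72 to 0.09) without the low-count aCap-like cluster, and LEC-like ECs held only 10 and 9 UMIs. In the control library artery-like ECs stood above vein-like ECs without overlap, whereas in the B16-F10 library the vein-like level was the higher one and the intervals overlapped. The artery-like ratio was -0.34 (-1.56 to 0.80) with every cell thinned to 2000 UMIs. The 8 markers that named the artery-like class were also lower there, summing to 6373 CPM in the control library against 4524 in the B16-F10 library, and the 6 platelet markers were higher, at 4.98 and 40.0 CPM. Their part in the artery-like ratios was not tested.

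Jag2, the remaining ligand, stood at 28.3 and 26.2 CPM in gCap-like ECs (log2 ratio -0.11, -0.24 to 0.01) and at 29.9 and 30.3 CPM in aCap-like ECs (0.02, -0.20 to 0.23). All classes next to each other in order of level overlapped in both libraries. Vein-like ECs were lowest, at 11.6 CPM (8.05 to 16.1) for control and 6.95 (4.36 to 10.5) for B16-F10. They did not overlap gCap-like or aCap-like ECs in either library. The artery-like value rested on 36 and 15 UMIs and was -1.10 (-2.07 to -0.19). It was -0.33 (-0.82 to 0.15) with clusters cut at resolution 1.6, which put 380 control and 295 B16-F10 cells in that class. Vein-like ECs held 35 and 22 UMIs (-0.73, -1.57 to 0.08).

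Notch1, the main receptor of Dll4 in endothelium, was present in every class at similar levels, with 1.83-fold between the highest and the lowest class in the control library against 1.74-fold in the B16-F10 library. Artery-like ECs were highest in both, at 346 CPM (316 to 378) and 312 (282 to 344). In gCap-like ECs the level was 251 CPM (246 to 256) in the control library against 268 (263 to 273) in the B16-F10 library, a log2 ratio of 0.10 (0.05 to 0.14). That ratio was 0.00 (-0.05 to 0.05) when only cells with at least 1500 genes were kept. Those cells were clustered anew, which put 3637 control and 2630 B16-F10 cells in the gCap-like class. The log2 ratios in aCap-like, artery-like and vein-like ECs were -0.03, -0.15 and 0.04, all within counting error. LEC-like ECs held 123 and 86 UMIs, or 256 and 179 CPM, a log2 ratio of -0.52 (-0.93 to -0.11).

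Notch4, a receptor found mainly in endothelium, was highest in artery-like ECs (125 and 114 CPM) and gCap-like ECs (117 and 109 CPM), which overlapped in both libraries. It was lowest in LEC-like ECs, with 10 and 5 UMIs, of which free RNA would supply up to 13.5%. Among the classes with at least 50 UMIs, the ratio farthest from 0 was in aCap-like ECs, where 67.6 CPM (63.2 to 72.2) stood against 50.5 (46.4 to 54.9), a log2 ratio of -0.42 (-0.58 to -0.27). That class includes the low-count cluster of 605 control and 66 B16-F10 cells. Under the alternative settings its ratio ran from -0.54 to -0.14, the latter with all ECs summed. In gCap-like ECs the log2 ratio was -0.10 (-0.17 to -0.04), and -0.04 (-0.11 to 0.02) over clusters with at least 300 cells in each library. Vein-like and artery-like ECs were within counting error.

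Hey1, a repressor switched on by Notch, was the gene that set the 2 capillary types farthest apart. The control level was 313 CPM (307 to 319) in gCap-like ECs and 9.31 (7.73 to 11.1) in aCap-like ECs, a difference of 33.6-fold, and free RNA would supply 18.0% and 20.7% of the aCap-like level in the 2 libraries. Artery-like ECs, at 311 CPM (283 to 342), overlapped gCap-like ECs, and vein-like and LEC-like ECs stood at 44.3 and 33.3 CPM. In the B16-F10 library gCap-like ECs were at 209 CPM (205 to 214), a log2 ratio of -0.58 (-0.62 to -0.54), and artery-like ECs at 288 (259 to 319), a log2 ratio of -0.11 (-0.32 to 0.09). In that library the 2 classes did not overlap. The artery-like ratio was -0.39 (-0.53 to -0.25) with doublets kept, where new clustering put 362 control and 266 B16-F10 cells in that class. Vein-like ECs stood at 44.3 and 26.2 CPM (-0.75, -1.17 to -0.35), and LEC-like ECs held 16 and 4 UMIs, of which free RNA would supply 5.89% and 21.9%.

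Hey2, a related repressor tied to arterial fate, had its highest level in artery-like ECs in both libraries, although gCap-like ECs, which are far more numerous, held more of its UMIs. Artery-like ECs held 86 UMIs in the control library, or 61.2 CPM (49.0 to 75.6), and 18 in the B16-F10 library, or 14.4 CPM (8.53 to 22.7), a log2 ratio of -2.09 (-2.91 to -1.34). In gCap-like ECs 117 and 27 UMIs gave 3.22 and 0.698 CPM, a log2 ratio of -2.21 (-2.87 to -1.59). One gCap-like cluster, led by Ntrk2, Adam23 and Tubb2b with Sox17 among its leading genes, held 77 of the 117 control UMIs and 13 of the 27 B16-F10 UMIs. The artery markers summed to 247 CPM in gCap-like ECs of the control library against 174 in the B16-F10 library. The other classes had between 0 and 9 UMIs per library. With no upper limit on genes per cell the artery-like ratio was -1.03 (-1.59 to -0.49), in a class of 225 control and 179 B16-F10 cells.

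Hes1, a repressor that Notch and other signals induce, was highest in vein-like ECs in both libraries, at 424 CPM (401 to 448) and 375 (354 to 397). The 2 capillary types differed in opposite directions. In gCap-like ECs 243 CPM (238 to 248) stood against 284 (278 to 289) in the B16-F10 library, a log2 ratio of 0.22 (0.18 to 0.26). In aCap-like ECs 233 CPM (224 to 241) stood against 177 (169 to 185), a log2 ratio of -0.40 (-0.48 to -0.31), and it was -0.57 (-0.65 to -0.48) without the low-count aCap-like cluster. Vein-like ECs gave -0.18 (-0.29 to -0.06) and LEC-like ECs -0.51 (-0.99 to -0.03). The artery-like ratio of -0.36 (-0.61 to -0.12) was 0.05 (-0.13 to 0.22) with clusters cut at resolution 1.6. The difference between classes was not tested.

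The share of gCap-like ECs with a UMI was compared after every cell had been thinned to 2000 UMIs, which left out 62 control and 28 B16-F10 cells. Cells with a Hey1 UMI were 41.2% (39.8 to 42.6) in the control library against 29.5% (28.2 to 30.9) in the B16-F10 library. Before thinning they were 74.0% and 64.3%, at a median of 7303.5 and 8446 UMIs per cell. Thinned shares were 8.22% and 4.75% for Jag1, 23.1% and 20.3% for Dll4, 37.9% and 41.3% for Notch1, and 30.6% and 34.6% for Hes1. These 5 genes kept the direction of their CPM ratio, with intervals that did not overlap, while the shares for Jag2 (4.90% and 5.11%) and Notch4 (21.8% and 19.5%) had overlapping intervals. Hey2 kept its direction too, without overlap, in 28 control cells (0.584%, 0.388 to 0.843) and 3 B16-F10 cells (0.068%, 0.014 to 0.199). How many of all genes had shares without overlap was not counted. In artery-like ECs a Hey2 UMI was found in 20 of 180 cells for control (11.1%) and 3 of 132 for B16-F10 (2.27%), with intervals that did not overlap. As a reference outside the endothelium, 77 melanoma-like B16-F10 cells, taken from clusters cut at resolution 1.6 and with a median of 8039.5 UMIs before thinning, were counted. Of these 0 held a Hey1 UMI, where the upper limit is 3.90% by a floor of 3 counts and 4.68% by the Clopper-Pearson interval, limits on cells with a UMI and not on cells expressing the gene, and 1 held a Dll4 UMI. Melanoma markers summed to 26.9 CPM in control and 54.9 in B16-F10 gCap-like ECs, with 7 of 8 higher, and their part in the ratios was not tested.

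The gCap-like ratios were also read within each of the 6 clusters of that class. Jag1 was lower by its counting interval in 5 clusters, with log2 ratios from -1.07 to -0.57, and stood at -0.71 (-1.43 to 0.11) in the cluster mostly of the B16-F10 library, which held 17 control UMIs. Hey1 was lower in 5 clusters and within counting error in the low-count one (-0.11, -0.31 to 0.08). Its ratio was -1.10 (-1.37 to -0.81) in the cluster mostly of the B16-F10 library and between -0.35 and -0.13 in the other 4. Hes1 was within counting error in 3 clusters (-0.02, 0.08 and -0.03) and higher in 3, at 0.47 (0.36 to 0.58) in the cluster led by Esm1, 0.51 (0.27 to 0.77) in the one mostly of the B16-F10 library and 0.40 (0.19 to 0.62) in the low-count one. Dll4 was lower in 4 clusters, with ratios from -0.48 to -0.21, within counting error in 1 (-0.13, -0.31 to 0.04), and higher in the cluster mostly of the B16-F10 library, at 128 CPM (101 to 161) and 166 CPM (158 to 175; 0.37, 0.03 to 0.73). Over only the clusters with at least 300 cells in each library, which leave that cluster out, Hey1 stood at -0.36 (-0.40 to -0.32), Hes1 at 0.11 (0.07 to 0.16), Dll4 at -0.37 (-0.44 to -0.31), and Notch1 at 0.03 (-0.01 to 0.08), within counting error.

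Reactive capillaries (rCap) are the name given by the study to a capillary EC cluster that is present in healthy lungs and more numerous after melanoma injection. A score was formed per cell thinned to 2000 UMIs from 44 of 50 published rCap markers, without Kit and those shared with interferon-high capillaries. These markers were chosen partly on these libraries, and none is a Notch gene. Scores over 34 UMIs were found in 4.38% of control and 53.0% of B16-F10 gCap-like cells. In that range Hey1 stood at 341 CPM (287 to 401) in 210 control cells and 164 (153 to 176) in 2332 B16-F10 cells, a log2 ratio of -1.05 (-1.31 to -0.79). With scores of 0 to 20 UMIs it was -0.47 (-0.71 to -0.25), and with 21 to 34 it was -0.25 (-0.38 to -0.12). Between the highest and lowest ranges of 1 library, Hey1 was within counting error for control (log2 0.10, -0.15 to 0.35) and lower in the highest range for B16-F10 (-0.48, -0.72 to -0.23). Hes1 showed a ratio of 0.36 (0.07 to 0.66) between libraries in the highest range, and 0.02 and -0.01 in the lower and middle ranges. With cuts that split the control cells into 3 groups of like size, the highest group gave -0.65 for Hey1 and 0.10 (-0.02 to 0.22) for Hes1. Hes1 was then higher in the lowest group (0.38, 0.07 to 0.67) and within counting error in the middle one (-0.14, -0.36 to 0.08). Its pattern over the ranges thus depended on the cuts. The B16-F10 Hey1 level was within counting error between its highest and lowest groups (-0.08, -0.41 to 0.27). The ranges are cuts of a continuous score, not cell types.

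**Figure D3:**
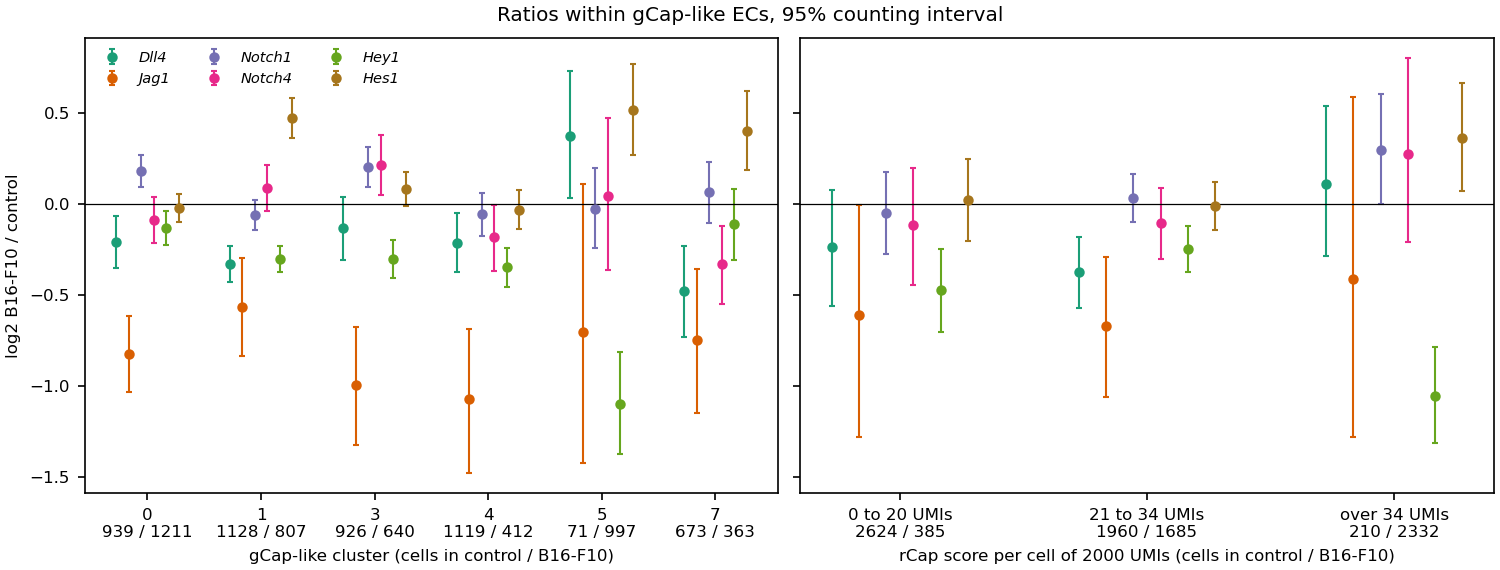
Log2 ratio of B16-F10 over control within gCap-like ECs, by cluster (left) and by rCap score per cell thinned to 2000 UMIs (right), with 95% counting intervals as bars and cell numbers under each group. All points of Jag1 and Hey1 lie below 0, and the Hey1 ratio is lowest in cluster 5, which is mostly of the B16-F10 library, and in the highest score range.

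A second score set 6 arterial genes against 6 venous genes in each thinned gCap-like cell, with Gja4 and Sox17 among the arterial genes and none of the 8 Notch genes. Hey1 was higher in control cells with a score above 0 (326 CPM, 313 to 339) than in those below 0 (210, 176 to 249), a log2 difference of 0.63 (0.38 to 0.90), and it was 0.44 (0.16 to 0.72) in the B16-F10 library. Hes1 ran the other way, at 240 and 349 CPM in the control library (-0.54, -0.74 to -0.33) and at 284 and 326 in the B16-F10 library (-0.20, -0.39 to 0.00). Dll4 differed by 0.30 (-0.04 to 0.66) for control and by 0.73 (0.35 to 1.13) for B16-F10. The thinned control cells held 28 Hey2 UMIs above 0, 1 at 0 and 0 below 0. Between libraries, Hey1 was lower in each range, at -0.39, -0.85 and -0.59 below, at and above 0. Genes of the score differ between the libraries themselves, with Gja4 at 0.74 and Sox17 at -0.22 in gCap-like ECs. A range therefore need not hold like cells in both libraries.

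**Figure D4:**
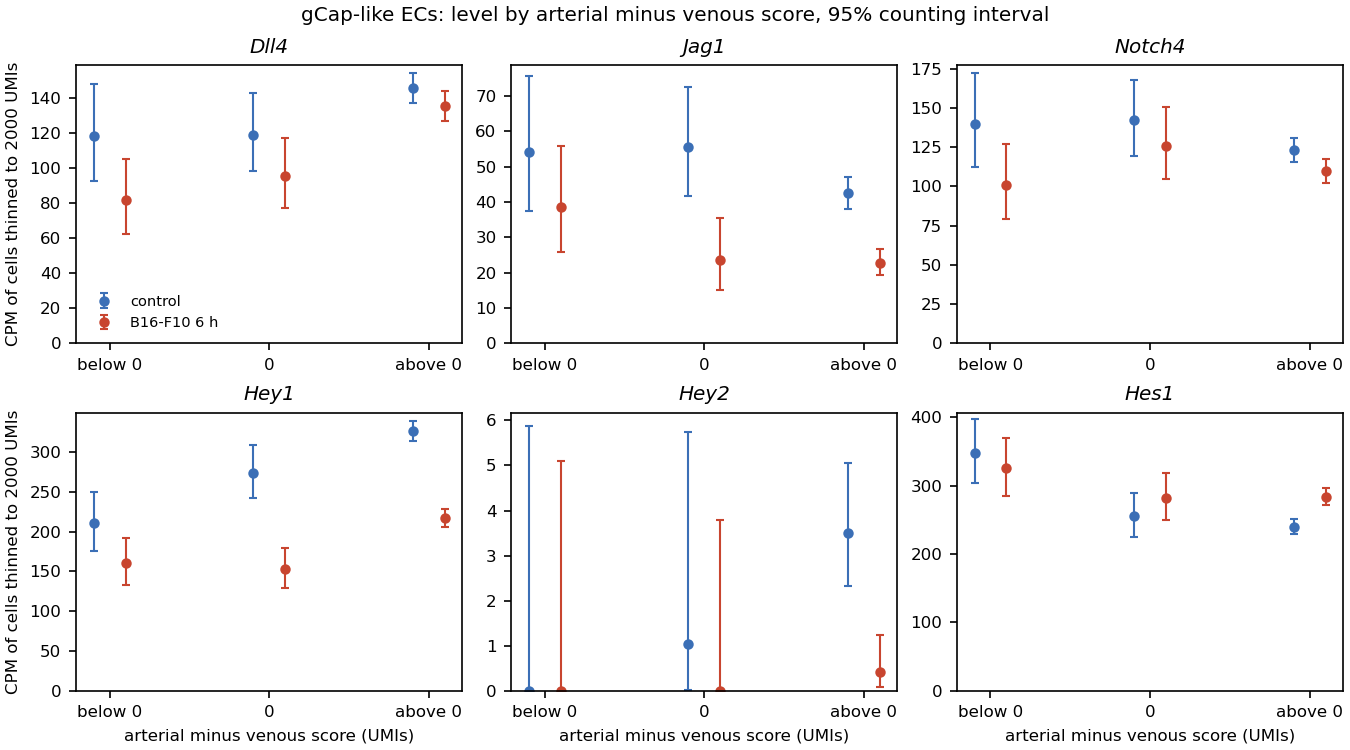
Level of 6 Notch genes in gCap-like cells thinned to 2000 UMIs, in CPM on a linear axis, by arterial minus venous score in the control (blue) and B16-F10 (red) library, with 95% counting intervals as bars. Hey1 is higher with a score above 0 than below 0 in both libraries, and Hes1 is lower there in the control library.

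Ligands, receptors and targets were read together in thinned gCap-like cells. In the control library a Hey1 UMI was found in 47.2% (44.2 to 50.2) of cells with a Dll4 UMI and 39.4% (37.8 to 41.0) of those without, and a Notch1 UMI in 42.3% (39.4 to 45.3) and 36.6% (35.0 to 38.1). Hes1 was found in fewer cells with Dll4, 26.0% (23.4 to 28.6), than without it, 32.0% (30.5 to 33.5). In the B16-F10 library the Notch1 shares were 46.2% (42.9 to 49.5) and 40.1% (38.5 to 41.8), and the intervals of the Hey1 shares (33.1% and 28.6%) and of the Hes1 shares (32.0% and 35.3%) overlapped. A ligand, a receptor and a target were counted in the same cell in 529 of 4794 control and 394 of 4402 B16-F10 cells, with intervals that did not overlap. Taken singly, a ligand was found in 33.0% of control and 27.9% of B16-F10 cells, a receptor in 51.25% and 52.57%, and a target in 59.2% and 54.4%. The joint count depends on these shares and was not compared with the count they alone would give. These shares describe cells of 1 library each and were not tested. Levels also differed between the gCap-like clusters. In the control library they ran from 91.1 to 225 CPM for Dll4, 181 to 442 for Hey1, 202.5 to 318 for Notch1 and 118 to 323 for Hes1. The part of cluster makeup in the shares with and without Dll4 was not tested.

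The wider pathway was read from lists of 66 genes, of which 56 reached 50 UMIs in gCap-like ECs. By the counting interval 14 were higher and 27 lower, with a median log2 ratio of -0.14, where 28.6% of all genes were higher and 34.4% lower, with a median of -0.04. The list of the nuclear complex held 6 lower genes of 7 measured, with a median of -0.21. Lfng, one of the Fringe enzymes that extend receptor sugar chains, was at 80.0 and 49.1 CPM (-0.70, -0.79 to -0.62). The Fringe enzyme Mfng was higher, at 48.0 and 53.6 CPM (0.16, 0.07 to 0.25), and Rfng was within counting error (0.09, -0.11 to 0.29). Mfng and Rfng are named after their values were seen. Efnb2, an arterial ephrin that Notch induces, was at 713 and 410 CPM (-0.80, -0.83 to -0.77). The tip cell genes Cxcr4 (-2.08, -2.29 to -1.87), Angpt2 (-1.12, -1.25 to -0.98) and Esm1 (13.4 and 6.67 CPM) were lower. Of the 6 tip cell genes measured these 3 were lower and 2 were higher, Pdgfb (0.39, 0.35 to 0.43) and Plxnd1 (0.44, 0.35 to 0.54), which are named after their values were seen. Higher were the ligand Dll1, at 37.8 and 57.4 CPM (0.60, 0.51 to 0.70), the arterial gap junction gene Gja4, at 148 and 247 CPM (0.74, 0.69 to 0.78), and Neurl1a, a ubiquitin ligase acting on ligands (0.84, 0.22 to 1.49). The receptor Notch3 (50 and 131 UMIs; 1.30, 0.82 to 1.80) and the target Heyl (26 and 52 UMIs; 0.91, 0.20 to 1.65) were higher as well. Both are known from mural cells, whose 8 markers summed to 27.5 CPM for control and 45.9 for B16-F10, with 7 of 8 higher and none at 0, and the part of these cells was not tested.

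**Figure D5:**
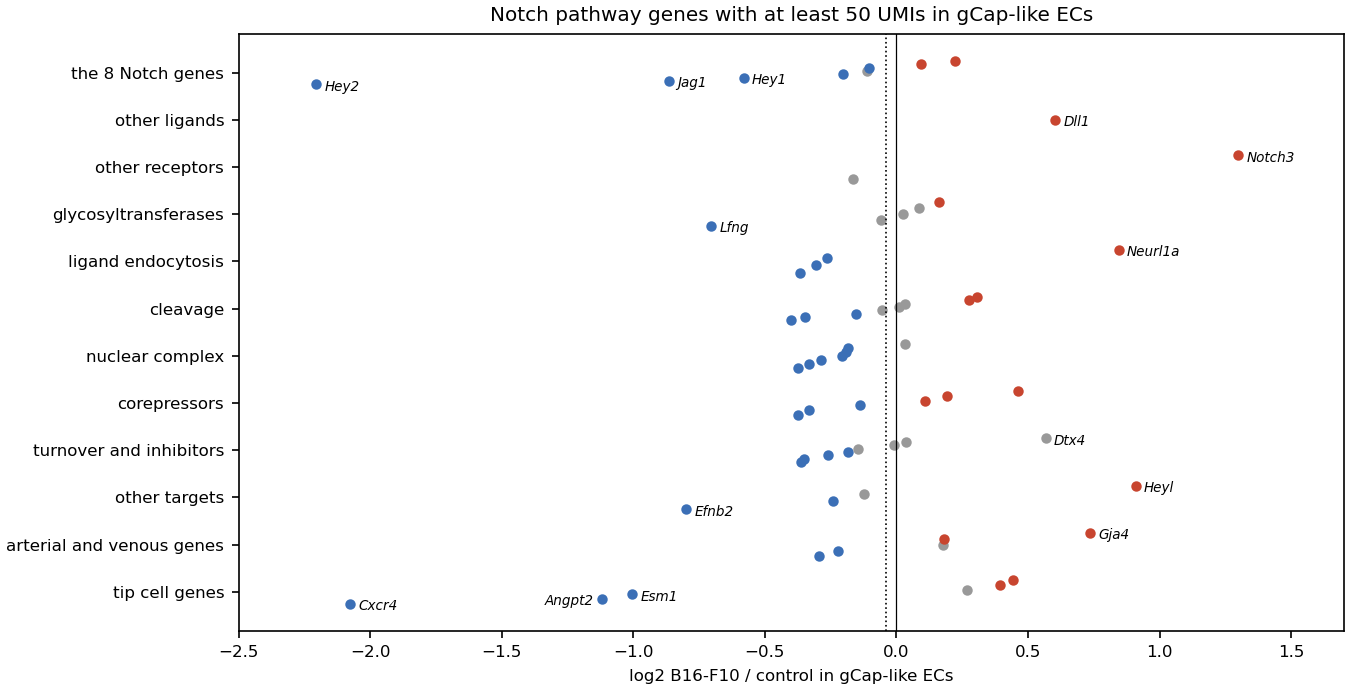
Log2 ratio of B16-F10 over control in gCap-like ECs for the 8 Notch genes and the pathway genes with at least 50 UMIs, by list. Blue marks counting intervals below 0, red above 0 and grey those that include 0, the dotted line is the median of all genes, and names mark genes past 0.5 in size. Hey2 and Cxcr4 have the lowest ratios, near -2, and Notch3 the highest, at 1.30.

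The other classes shared some of these directions. Efnb2 was lower by its interval in all 5 classes, with ratios of -0.61 in aCap-like, -0.61 in artery-like, -0.80 in LEC-like and -0.51 in vein-like ECs. Gja4 was higher in aCap-like (1.29), artery-like (0.94) and vein-like ECs (0.80), and stood at -0.25 (-1.07 to 0.54) in LEC-like ECs. Lfng was lower in aCap-like (-0.76) and vein-like ECs (-1.04). Mfng was higher in aCap-like ECs (0.20, 0.10 to 0.30) and within counting error in vein-like ECs (0.12, -0.21 to 0.45).

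Of the pathway genes measured, 13 were higher and 17 lower of 50 in aCap-like ECs, 3 and 8 of 43 in artery-like ECs, 2 and 6 of 34 in LEC-like ECs and 6 and 14 of 46 in vein-like ECs. The shares of all genes higher and lower were 27.9% and 27.4% in aCap-like, 15.2% and 13.2% in artery-like, 10.1% and 10.4% in LEC-like and 12.3% and 14.6% in vein-like ECs. In aCap-like ECs Dll1 held 10 and 51 UMIs (2.62, 1.62 to 3.76). Neurl1a (1.10), the semaphorin receptor Plxnd1 (1.26), the basement membrane gene Nid2 (1.23), the netrin receptor Unc5b (0.78) and the corepressor Tle3 (0.52) were higher there. The ligand-handling ubiquitin ligase Mib1 (-0.62), the Notch inhibitor Numb (-0.59) and Fbxw7 (-0.71), which targets the Notch intracellular part for degradation, were lower there. All aCap-like pathway ratios include the low-count cluster of 605 control and 66 B16-F10 cells and were not recomputed without it. In artery-like ECs Cxcr4 (-1.48) and the corepressor Spen (-0.57) were lower. In vein-like ECs the protein fucosyltransferase Pofut1 (0.69) and the gamma-secretase gene Psen2 (0.77) were higher, and Sox17 (-0.60), Hes6 (-0.70) and Ep300 (-0.56) were lower. In LEC-like ECs Unc5b (0.90) was higher, and Adm (-1.13), Tle1 (-0.94), Psen2 (-0.70) and Aph1b (-2.21) were lower.

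Genes with the level pattern most like each Notch gene were found by Pearson correlation of log2(CPM + 5) over 10 sums, the 5 classes in 2 libraries, among 11711 genes. The sums of a class share its cell makeup, and those of a library its depth, so the coefficients are a description. For Hey1 the nearest were Tox3 (0.99), Grik2 (0.98) and Rnf144a (0.96), and for Notch4 they were Bmpr2, a receptor for bone morphogenetic proteins (0.98), P2rx7 (0.98) and Rnf8 (0.98). Dll4 was nearest to Fnip2 (0.94), Mast4 (0.93) and Ankrd11 (0.92), Jag1 to Ankzf1 (0.96), Tmpo (0.95) and Mllt6 (0.94), and Jag2 to Cep192 (0.94), Sh3rf1 (0.91) and Spen (0.90). Notch1 was nearest to Ror1 (0.96), Grp (0.94) and Mical2 (0.94), Hey2 to Mpp5 (0.96), Pde1c (0.94) and Gm20274 (0.94), and Hes1 to Pkp4 (0.93), Ptgs1 (0.93) and Prelid2 (0.92).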

How the data were processed

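Single lung cells of 2 libraries, 1 per group, were analysed. The authors deposited raw UMI counts per gene and barcode for all barcodes, with no normalization. The submitters' processing notes name Cell Ranger 7.2.0, Seurat 4.4.0 and mm10. The published methods give another Cell Ranger version, the labels name a v2 kit, and whether intron reads were counted is not given in the sources used here. If they were, long genes would gain UMIs. Limits of 1000 to 5000 genes and of 20% mitochondrial UMIs per cell were applied, and Scrublet doublets (6.72% and 6.66%) were removed, with scanpy 1.11.5. Cells were clustered with leidenalg 0.10.2 at resolution 0.8, and classes were named from marker lists. UMIs were summed per class and library as CPM, with exact Poisson intervals from scipy 1.17.1. Ratios have exact conditional binomial intervals and shares Clopper-Pearson intervals, all covering counting error only. The ratio intervals were run on counts simulated with counting error alone, which is the model they assume. That run cannot show how they hold under variation between cells, mice or libraries.

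Named are the 8 Notch genes, pathway genes past a log2 ratio of 0.5 with an interval that excludes 0, the 10 pathway genes with the largest ratios in gCap-like ECs, and the 3 nearest genes of each Notch gene. The Notch genes, lists and score ranges were chosen with earlier results of these data known. Free RNA was estimated from barcodes with 1 to 100 UMIs and 5 airway and alveolar epithelial genes.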

Additional observations from a re-analysis of the deposited data

Results flagged for a closer look

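Among the 8 Notch genes, effects in opposite directions between vessel classes, each outside counting error, were found for 2, and the differences between classes were not tested, since each class has 1 library per group. Hes1 had a log2 ratio of B16-F10 over control of 0.22 in gCap-like ECs, against -0.40 in aCap-like, -0.36 in artery-like, -0.51 in LEC-like and -0.18 in vein-like ECs. Notch1 stood at 0.10 in gCap-like and at -0.52 in LEC-like ECs.

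An unnamed endothelial cluster, led by Csf2, Sox9 and Prnd and made up of 12 control and 344 B16-F10 cells, was in no vessel class. In its B16-F10 cells Dll4 was higher than in all control ECs by a log2 ratio of 0.81 (0.70 to 0.92), Jag1 by 0.63 (0.42 to 0.84) and Hes1 by 0.29 (0.20 to 0.38). In the same cells Hey1 stood at 12.6 CPM against 222 in all control ECs (-4.13, -4.60 to -3.70), and Jag2 at 4.71 CPM against 27.6 (-2.55, -3.36 to -1.85). With 12 control cells in the cluster, state and library cannot be told apart.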

How the results depend on the processing

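Each of 33 ratios was recomputed under the alternatives, giving 419 values: 374 stayed within the counting interval, 38 moved and 7 reversed. Of 20 ratios outside counting error, 14 never reversed. These tallies include all ECs summed, 1 sum that was set against every class and that gave most of the reversals. Since gCap-like cells made up 70.95% of control and 71.36% of B16-F10 ECs, that sum is no reprocessing of the smaller classes. Other cell limits, kept doublets and other clustering settings also changed which cells a class held. No paired analysis was possible because there is 1 library per treatment. Leaving out low-count clusters, or gCap-like clusters under 300 cells in a library, was chosen after seeing the data. The causes were not tested.

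The reversals were Hes1 with all ECs summed (0.0922) against aCap-like, artery-like, vein-like and LEC-like ECs, Notch1 with all ECs summed (0.0562) against LEC-like ECs, Dll4 in artery-like ECs thinned to 2000 UMIs (0.14) and Hes1 in artery-like ECs at resolution 1.6 (0.0468). Cells with at least 1500 genes, clustered anew, put 3637 control and 2630 B16-F10 cells in the gCap-like class. In gCap-like ECs they gave Dll4 -0.36, Notch1 0.0015, Hey1 -0.42, Hey2 -2.89 and Hes1 0.0506, with 1 gene higher. Seurat integration gave Dll4 -0.28. All ECs summed gave Dll4 -0.0742, Jag1 -0.67 and Hes1 0.0922. Thinning gave Jag2 0.0691, Notch4 -0.19 and Hey2 -3.15. Without low-count clusters Hey1 was -0.62. Clusters of at least 300 cells in each library gave Dll4 -0.37, Jag2 0.0735, Notch1 0.0316, Hey1 -0.36 and Hes1 0.11, with 1 gene higher. The log2 ratio of Hey1 shares was -0.33 at 4000 UMIs per cell. With the rCap score cut into 3 groups of like size by the control cells, Hes1 was 0.38 in the lowest, Jag1 -1.12 and Hey1 -0.38 in the middle, and Hey1 -0.65 in the highest group.

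Genes past a log2 ratio of 0.5 depend on the minimum count. With at least 10 UMIs, 2111 were higher and 2809 lower in gCap-like, 1689 and 2180 in aCap-like, 1786 and 1754 in artery-like, 1362 and 1459 in vein-like and 1694 and 1700 in LEC-like ECs. With at least 200, 1026 were lower in gCap-like ECs, and 672 were higher and 691 lower in aCap-like, 279 and 215 in artery-like, 264 and 247 in vein-like and 72 and 51 in LEC-like ECs.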

Other observations

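Barcodes with 1 to 100 UMIs, which hold free RNA, also carried the Notch genes. In them Dll4 stood at 123 CPM (114 to 132) in the control library and 104 (93.2 to 115) in the B16-F10 library, a log2 ratio of -0.25 (-0.43 to -0.06). Jag1 (-0.56, -0.96 to -0.18), Jag2 (-0.44, -0.87 to -0.03), Hey1 (-0.40, -0.58 to -0.22) and Hes1 (-0.17, -0.31 to -0.02) were lower as well, and Notch1, Notch4 and Hey2 were within counting error. The Hes1 direction was opposite to that in gCap-like ECs (0.22, 0.18 to 0.26). How many of all genes were lower or higher in these barcodes was not counted, so a shift particular to the Notch genes cannot be read from them.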
